A study of Mus musculus with 4 samples.

Results

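Both arms of 5 miRNA precursors at the ends of the imprinted Dlk1-Dio3 domain of mouse chromosome 12 are described here across retinas with and without functional Ptf1a. The 10 arms, of 1326 miRNAs listed, are those of miR-770, miR-673, miR-493 and miR-337, near Meg3, and of miR-1247, beside Dio3. They were selected on measured values: miR-493 was higher and miR-673 and miR-1247 lower in Ptf1a-/-, so their differences between the genotypes, and which of them pass the threshold of the fit over all miRNAs, are given below as a description and are no independent test. Small RNA of whole retina at E18.5, shortly before birth, was sequenced from embryos with 1 functional copy of Ptf1a (Ptf1a+/-, 2 libraries) and from embryos with none (Ptf1a-/-, 2 libraries). Ptf1a encodes a transcription factor that retinal progenitors need to form horizontal and amacrine cells. No wild-type retina is among the libraries, and the labels do not name the strain, the mutant allele, the number of embryos per library or whether the libraries of a genotype come from separate animals. The spread between 2 libraries may therefore be technical. In whole tissue, fewer cells of a type and less RNA per cell cannot be told apart.

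The Dlk1-Dio3 domain is expressed by parental origin. The protein-coding genes Dlk1, Rtl1 and Dio3 are read mainly from the paternal chromosome, and the noncoding RNAs Meg3, Rian and Mirg, with the many miRNAs among them, from the maternal one. Dio3 encodes the deiodinase that inactivates thyroid hormone, and Dio3os is a noncoding RNA read in the opposite direction from beside it. A miRNA precursor is a hairpin whose 2 arms, 5p and 3p, can each yield a mature miRNA. The seed, bases 2 to 8 of the mature strand, largely decides which mRNAs it pairs with.

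The mature sequences are shown because the seeds separate the arms from each other and because the sequences recovered from miR-673 and miR-337 differed between libraries. They are printed 5′ to 3′ from RefSeq (GRCm38.p6), which held all 10, with the seed in capitals.
mmu-miR-770-5p: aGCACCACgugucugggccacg
mmu-miR-770-3p: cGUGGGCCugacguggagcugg
mmu-miR-673-5p: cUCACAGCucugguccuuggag
mmu-miR-673-3p: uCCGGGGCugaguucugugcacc
mmu-miR-493-5p: uUGUACAUgguaggcuuuc
mmu-miR-493-3p: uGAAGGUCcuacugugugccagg
mmu-miR-337-5p: cGGCGUCAugcaggaguugauu
mmu-miR-337-3p: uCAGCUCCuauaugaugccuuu
mmu-miR-1247-5p: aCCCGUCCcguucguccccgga
mmu-miR-1247-3p: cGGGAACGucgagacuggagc

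No 2 of the 10 arms shared a seed. Among the 1120 listed miRNAs with a RefSeq mature sequence, 1 other had the seed of an arm described here, mmu-miR-6985-3p, which shares UCACAGC with miR-673-5p. The arms of miR-770 and miR-1247 were rich in G and C (66.7 to 72.7%), above the median of 52.2% over those 1120 sequences. The arms of miR-493 and miR-337 held 40.9 to 56.5%, and those of miR-673 59.1 and 65.2%.

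The first 4 precursors follow each other on the plus strand of chromosome 12 (GRCm38, GENCODE M21). Mir770 (109563692 to 109563785) lies within Meg3: 4 Meg3 transcripts span it, 1 of them with the precursor inside its exon 5 and the others with it in an intron. Mir673 (109571990 to 109572080) starts 263 bases past the annotated end of Meg3 and overlaps no other annotated gene. Mir493 (109580233 to 109580315) also overlaps none. Mir337 (109585789 to 109585885) overlaps the antisense precursor Mir3544. Mir1247 (110278048 to 110278129) stands apart on the minus strand, 714 kb from the start of Mir770. It is inside exon 1 of the single Dio3os transcript that spans it, and 938 bases from the start of Dio3. The nearest annotated precursor to its left, Mir3072, is 530087 bases away.

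Levels are CPM, counts scaled to a common library total, adjusted by the trimmed mean of M values (TMM), with mean ± SD over 2 libraries. Log2 fold changes of Ptf1a-/- over Ptf1a+/-, with their SE, come from edgeR's quasi-likelihood fit over the 584 miRNAs that reached 10 counts in 2 or more libraries, and a miRNA is called at an adjusted p under 0.05. All arms but miR-337-3p entered that fit. Of the 9 that did, 5 were called, 2 higher (miR-493-5p and miR-337-5p) and 3 lower (miR-673-5p and both arms of miR-1247), and 4 were not. Over all 584 miRNAs 9.76% were called, 6.16% as higher and 3.60% as lower. The levels in Ptf1a-/- were both above those in Ptf1a+/- for 5 of the 9 arms and both below them for 4, against 26.7 and 31.5% of all 584. Since the arms were chosen from this contrast, nothing is read from these counts. The deposited values of the 10 arms were whole numbers in every library, 40 of 40, whereas 5.73 to 7.84% of all values per library were not.

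**Figure D1:**
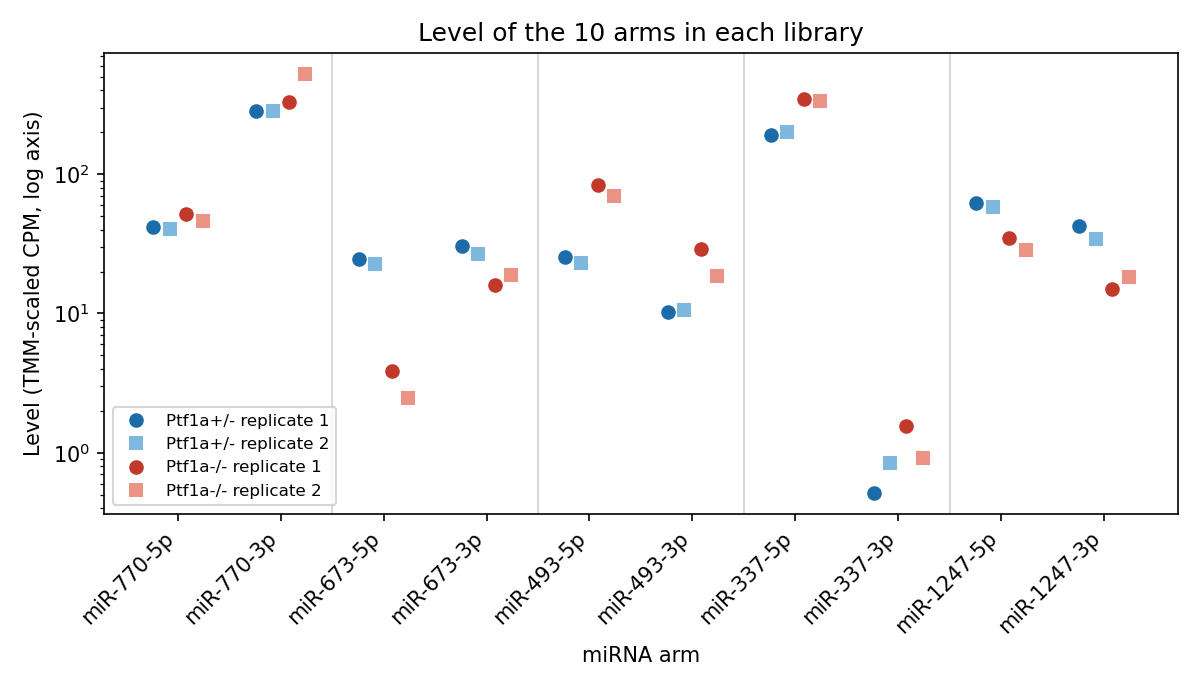
Level of each arm in each library, in TMM-scaled CPM on a log axis, with 1 point per library. For miR-673-5p the Ptf1a-/- libraries sit at 3.87 and 2.46 CPM, far below the Ptf1a+/- libraries, while for miR-493-5p they sit at 83.9 and 70.2 CPM, far above them.

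Neither arm of miR-770, the precursor within Meg3, was called. mmu-miR-770-3p stood at 284 and 284 CPM in Ptf1a+/- replicates 1 and 2 and at 332 and 524 CPM in Ptf1a-/- replicates 1 and 2. Ptf1a-/- replicate 2 alone was far from the others. The means were 284 ± 0.392 and 428 ± 136 CPM, a log2 fold change of 0.59 ± 0.22. It was 0.89 without Ptf1a-/- replicate 1 and 0.25 without Ptf1a-/- replicate 2. mmu-miR-770-5p stood at 41.8 and 40.6 CPM in Ptf1a+/- and at 51.4 and 46.5 CPM in Ptf1a-/- (log2 fold change 0.25 ± 0.16). All 4 of its values lie within a narrow range, with no overlap between the genotypes on this scale. By mean level over the 4 libraries miR-770-3p stood at rank 121 of 584 and miR-770-5p at rank 264.

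miR-673, the next precursor, was lower in Ptf1a-/- in both arms, the 5p arm far more than the 3p arm. mmu-miR-673-5p was counted 96 and 107 times in Ptf1a+/- and 15 and 8 times in Ptf1a-/-. These are levels of 24.8 and 22.8 CPM against 3.87 and 2.46 CPM. Both Ptf1a-/- values were far below the lower Ptf1a+/- value. The means were 23.8 ± 1.44 and 3.17 ± 0.996 CPM, with a log2 fold change of -2.87 ± 0.30. On counts summed per genotype the ratio was 0.136, with a 95% interval of 0.0845 to 0.210 that covers counting error only. mmu-miR-673-3p had 118 and 126 counts against 62 and 61, or 30.5 and 26.8 CPM against 16.005 and 18.8 CPM (means 28.6 ± 2.60 and 17.4 ± 1.97 CPM, log2 fold change -0.72 ± 0.21). Its libraries did not overlap between the genotypes either.

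miR-493, 8152 bases past Mir673, went the other way in both arms. mmu-miR-493-5p stood at 25.3 and 23.2 CPM in Ptf1a+/- and at 83.9 and 70.2 CPM in Ptf1a-/-. Each genotype formed a tight pair on this TMM-scaled level, with a wide gap between the pairs. On the deposited CPM the Ptf1a-/- libraries stood further apart, at 68.7 and 42.0. The means were 24.3 ± 1.503 and 77.1 ± 9.68 CPM, a log2 fold change of 1.67 ± 0.18. mmu-miR-493-3p stood at 10.3 and 10.6 CPM in Ptf1a+/- and at 29.2 and 18.48 CPM in Ptf1a-/- (means 10.5 ± 0.215 and 23.8 ± 7.56 CPM, log2 fold change 1.20 ± 0.30). Here the 2 Ptf1a-/- libraries differed from each other by 0.66 on the log2 scale, so the size of the difference depended on which of them was read. Ptf1a-/- replicate 1 was 1.48 above the Ptf1a+/- mean on that scale and replicate 2 was 0.82 above it.

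miR-337 yielded almost nothing but its 5p arm. mmu-miR-337-5p stood at 191 and 199.6 CPM in Ptf1a+/- and at 346 and 335 CPM in Ptf1a-/-. On this scale all libraries lay close to their genotype's mean (195 ± 5.76 and 340.2 ± 7.73 CPM), and the log2 fold change was 0.80 ± 0.11. mmu-miR-337-3p had 2 and 4 counts in Ptf1a+/- and 6 and 3 in Ptf1a-/-, at or near the 3 counts taken as the floor of detection, and no fold change was fitted. The ratio of its summed counts was 1.81, with a 95% counting interval of 0.574 to 6.16, so a difference was not detectable at this depth.

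Both arms of miR-1247, at the Dio3 end, were lower in Ptf1a-/-, and by similar factors. mmu-miR-1247-5p stood at 62.0 and 58.3 CPM in Ptf1a+/- and at 34.6 and 28.3 CPM in Ptf1a-/- (means 60.1 ± 2.62 and 31.5 ± 4.43 CPM, log2 fold change -0.93 ± 0.18). mmu-miR-1247-3p stood at 42.6 and 34.0 CPM against 15.0 and 18.2 CPM (means 38.3 ± 6.07 and 16.6 ± 2.26 CPM, log2 fold change -1.21 ± 0.23). The genotypes did not overlap in either arm. For miR-1247-3p the Ptf1a+/- libraries also stood apart, replicate 2 being lower by 0.32 on the log2 scale (-0.32), against a median of 0.10 between these libraries over the 584 miRNAs and of 0.33 between the Ptf1a-/- libraries.

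The balance of the arms within a library does not depend on how libraries are scaled. For Mir673 the 5p arm made up 44.9 and 45.9% of the counts of both arms in Ptf1a+/- and 19.5 and 11.6% in Ptf1a-/-. Summed per genotype this was 45.4% (95% exact Clopper-Pearson interval 40.7 to 50.2%) and 15.8% (10.3 to 22.7%). These intervals pool the reads of 2 libraries and cover counting error only. For Mir493 the 5p share was 71.0 and 68.6% in Ptf1a+/- and 74.2 and 79.2% in Ptf1a-/-, for Mir1247 59.3 and 63.1% against 69.8 and 60.9%. The libraries of the genotypes did not overlap for Mir493 and overlapped for Mir1247. Summed per genotype, the Mir493 share was 69.7% (64.1 to 74.9%) in Ptf1a+/- and 76.2% (72.9 to 79.2%) in Ptf1a-/-, and these counting intervals overlapped. Mir770 and Mir673 had more 3p than 5p counts in all 4 libraries, Mir770 with a 5p share of 12.8 and 12.5% in Ptf1a+/- and 13.4 and 8.14% in Ptf1a-/-. Mir337 had 99.6 to 99.7% of its counts on the 5p arm in every library. The shares come from the counts that chose the arms, so no test was made.

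**Figure D2:**
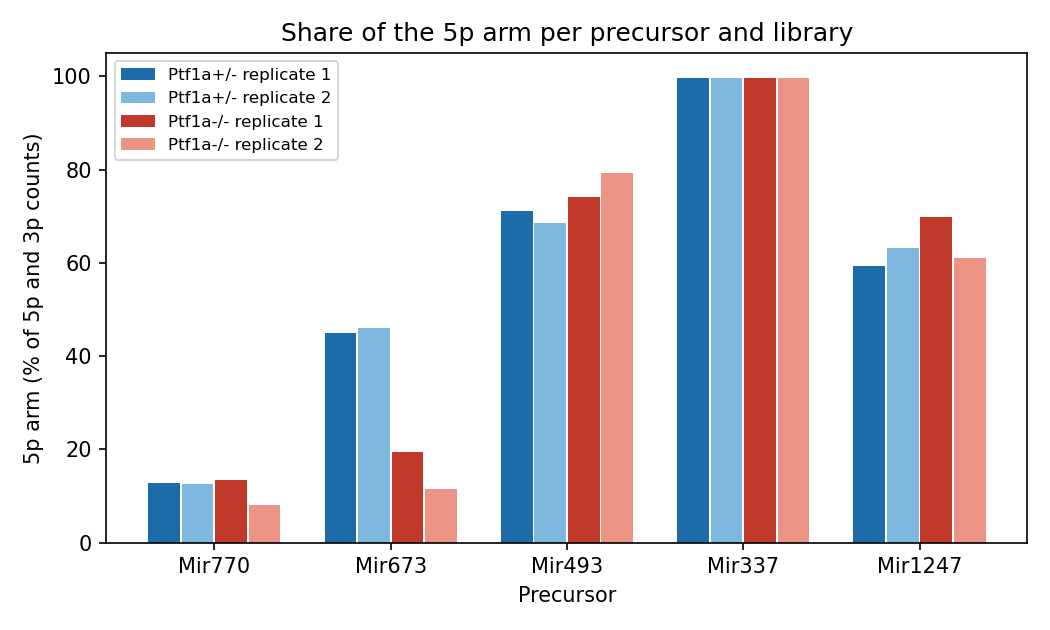
Share of the 5p arm among the counts of both arms, in percent, for each precursor and library, with 1 bar per library. The Mir673 bars drop from 44.9 and 45.9% in Ptf1a+/- to 19.5 and 11.6% in Ptf1a-/-, while the Mir337 bars stay above 99% in all 4 libraries.

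The sequences recovered from miR-673-5p also differed between the genotypes. For each miRNA and library, a deposited table gives the sequence read most often. For miR-673-5p these were as follows, shown in lower case with a base that differs from the reference in capitals.
Ptf1a+/- replicate 1: ctcacagctctggtccttgga
Ptf1a+/- replicate 2: ctcacagctctggtccttgg
Ptf1a-/- replicate 1: ctcacagctcCggtccttgg
Ptf1a-/- replicate 2: ctcacagctcCggtccttgga

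Both Ptf1a-/- libraries carried T11C (positions run from 1 at the mature miRNA's 5′ end), and neither Ptf1a+/- library did. Position 11 lies outside the seed and corresponds to base 109572014 of chromosome 12. In both genotypes 1 library ended a base earlier than the other at the 3′ end. The Ptf1a+/- sequences matched Mir673 and no other gene among the GENCODE M21 transcripts, searched on both strands, and the T11C sequences matched no transcript and no RefSeq miRNA hairpin. The table gives only the most frequent sequence, so the share of miR-673-5p reads with T11C is not known, and in Ptf1a-/- it stands for the largest group among 15 and 8 counts. The sources used here do not say how reads that differ from the reference were counted. The low count and the sequence difference moved together, and the part of one in the other was not tested. The labels do not say whether both genotypes share a strain background at this locus, so an inherited sequence difference and the genotype of Ptf1a cannot be told apart here. Of the 584 miRNAs in the fit, 519 had no marked difference in any library. Only 2 had one in each Ptf1a-/- library and none in Ptf1a+/-, miR-673-5p and mmu-miR-574-3p, which was named after its values were seen and had 14 and 5 counts against 12 and 5. Conversely, 3 had one in both Ptf1a+/- libraries only.

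The Mir673 hairpin is shown with both mature arms in capitals, since T11C lies in the stem.
Mir673: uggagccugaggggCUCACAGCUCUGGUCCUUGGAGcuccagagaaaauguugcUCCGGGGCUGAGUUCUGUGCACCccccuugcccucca

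Base 11 of the 5p arm is base 25 of this 91-base hairpin. In the minimum free energy structure predicted by RNAfold it paired with the A at base 65, at -42.3 kcal/mol. With C in its place it paired with the G at base 64, at -43.4 kcal/mol. This is a computed fold of the annotated hairpin and not a measurement of these samples.

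The other arms were mostly uniform in sequence. The most frequent miR-493-5p sequence was the same in all 4 libraries and ran 3 bases past the 19-base reference, with bases that match the hairpin.
mmu-miR-493-5p: ttgtacatggtaggctttcatt

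miR-770-5p likewise ended 1 base past its reference in every library, with a base of the hairpin. miR-1247-5p ended with 2 added T in every library, which do not match the hairpin.
mmu-miR-1247-5p: acccgtcccgttcgtccccggatt

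miR-770-3p, miR-493-3p, miR-337-5p and miR-1247-3p matched their reference from end to end in every library. miR-673-3p did so in 3 libraries, and carried C23T, at its last base, in Ptf1a-/- replicate 2. miR-337-3p, like miR-673-5p, had a different sequence in each library, with 2 to 6 counts behind them. They are shown with differing bases in capitals.
Ptf1a+/- replicate 1: tcagctcctatatgatgccttC
Ptf1a+/- replicate 2: tcagctcctatatgatgccttt
Ptf1a-/- replicate 1: ttcagctcctatatgatgcctCt
Ptf1a-/- replicate 2: ttcagctcctataCgatgccttt

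Counted on the reference, the differing bases of miR-337-3p were T22C in Ptf1a+/- replicate 1, T21C in Ptf1a-/- replicate 1 and T13C in Ptf1a-/- replicate 2. Both Ptf1a-/- sequences began 1 base upstream, with a base that matches the hairpin. That start moves the seed from CAGCUCC to UCAGCUC.

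Of 93 other miRNAs listed from between Dlk1 and Dio3, 66, from 42 precursors, entered the fit, and all 66 had a log2 fold change above 0 with TMM scaling and all 4 libraries. The log2 values ran from 0.005 to 2.51 with a median of 0.73, against a median of -0.003 over all 584 miRNAs. By edgeR's quasi-likelihood test 28 of the 66 were called higher and 0 lower, against 6.16 and 3.60% of all 584. With all 66 above 0 in that fit, none could be called lower. All 584 include the domain itself. Together with the arms described here, the domain held 30 of the 36 miRNAs called higher and 3 of the 21 called lower. DESeq2 called 29 of the 66 higher and 0 lower. The number called higher was 4 with library size only, 0 with limma on the deposited CPM, 9 without the filter and 3 with the replicate number as a block. None was called lower in any of these fits. With 1 library left out, the spread comes from the other genotype's pair alone, so calls are not compared here. The median of the 66 was then 0.69 without either Ptf1a+/- library. It was 0.58 without Ptf1a-/- replicate 1 and 0.81 without Ptf1a-/- replicate 2. In the TMM-scaled fit with all 4 libraries, the arms of miR-673 and miR-1247 were the only 4 of 75 tested domain miRNAs with a log2 fold change below 0. With the libraries scaled by size alone, 2 of the 66 (miR-323-5p and miR-412-3p, named after their values were seen) were below 0 as well, and on the deposited CPM 8 were, where the median of all miRNAs was itself -0.33. All 66 lay above that median. Without Ptf1a-/- replicate 1, 61 of the 66 were above 0, and without either Ptf1a+/- library 65 were. miR-493-5p, with 1.67, exceeded all but 1 of the 66, miR-300-5p, whose Ptf1a+/- libraries had 2 counts each. This comparison uses the contrast on which the arms were chosen, so it describes their place in the domain.

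**Figure D3:**
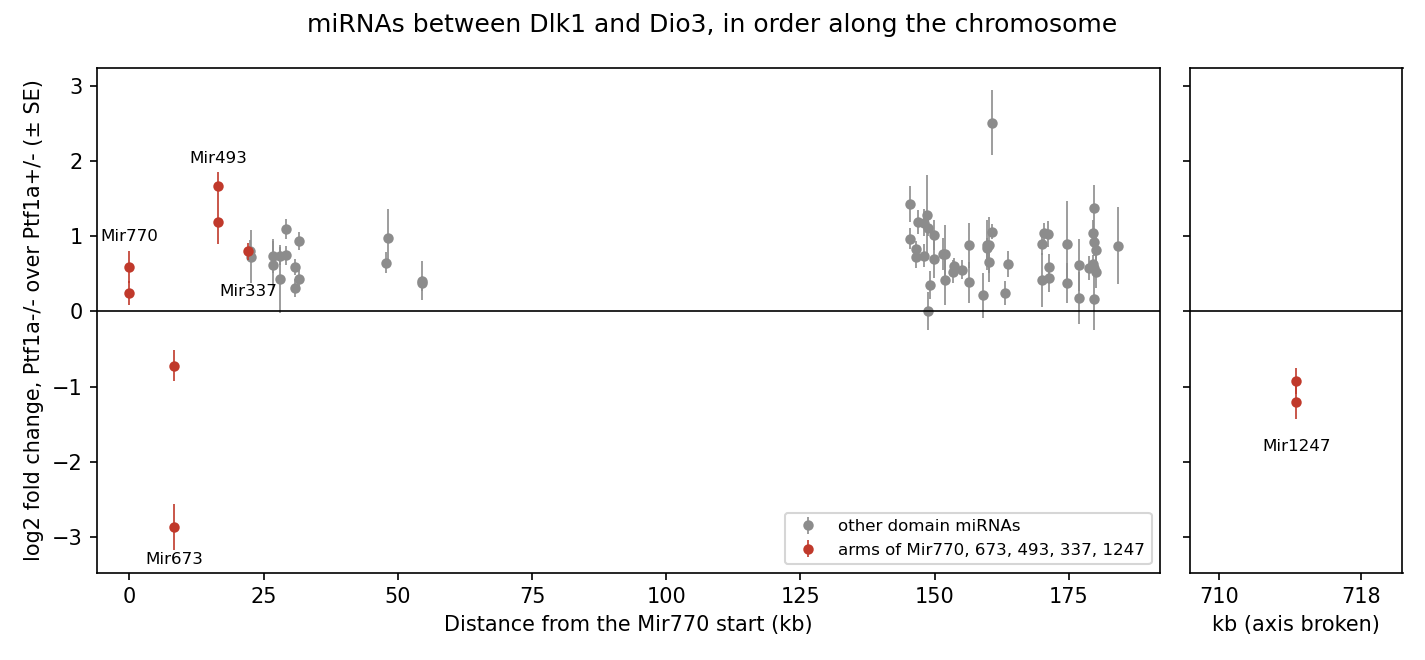
Log2 fold change of Ptf1a-/- over Ptf1a+/- with its SE for each tested miRNA between Dlk1 and Dio3, against distance from the start of Mir770 in kb, with the axis broken before Mir1247. The arms of Mir673 (-2.87 and -0.72) and Mir1247 (-0.93 and -1.21) lie below 0 and the arms of Mir770, Mir493 and Mir337 above it, as do the 66 other miRNAs with TMM scaling (64 of them with library size only and 58 on the deposited CPM).

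The first 4 precursors lie 8204, 8152 and 5473 bases apart. Of the nearest precursors outside the 5, only Mir3072, to the left of Mir1247, had listed arms. mmu-miR-3072-5p had 4 and 13 counts in Ptf1a+/- and 11 and 15 in Ptf1a-/- (log2 fold change 0.88 ± 0.52, adjusted p = 0.366 in edgeR's quasi-likelihood fit). mmu-miR-3072-3p had 6 and 1 counts against 9 and 8 and did not enter the fit. To the right of Mir337 the nearest precursor is the overlapping Mir3544, without listed arms. Past it, the first with listed arms is Mir540, from base 109586080, named after its values were seen. mmu-miR-540-3p stood at a mean of 46.3 CPM in Ptf1a+/- and 81.3 CPM in Ptf1a-/-. Its log2 fold change was 0.81 ± 0.14, against 0.80 for miR-337-5p. mmu-miR-540-5p did not enter the fit.

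Likeness of pattern was measured as the root mean square distance between log2 CPM values centred on the mean of the 4 libraries, so a small value means a similar course over these 4 libraries. Closest to miR-493-5p were 3 miRNAs of the same domain, miR-300-5p (0.18, from 2 and 2 counts against 10 and 10), miR-379-3p (0.19) and miR-380-5p (0.24), against a median distance of 0.86 over all miRNAs. Closest to miR-673-5p were miRNAs from outside the domain, miR-190b-3p (0.06), miR-1934-5p (0.34) and miR-190b-5p (0.52), against a median of 1.39. The first 2 of these had 25 and 31, and 18 and 23, counts in Ptf1a+/- and 3 and 1, and 3 and 2, in Ptf1a-/-. Closest to miR-1247-3p were miR-199a-5p (0.10), miR-342-5p (0.12) and miR-7658-5p (0.13), also from outside the domain, against a median of 0.63. Their levels were 26.0, 449 and 8.89 CPM in Ptf1a+/- and 12.6, 194 and 3.73 CPM in Ptf1a-/-. With 4 libraries in 2 groups, the distance mostly reflects the difference between the genotypes, which the prior count of 2 shrinks at low counts. A small distance therefore need not mean an equal fold change. The fitted log2 fold change was 2.51 for miR-300-5p and 1.43 for miR-379-3p, against 1.67 for miR-493-5p. It was -3.47 for miR-190b-3p, against -2.87 for miR-673-5p. miR-300-5p passed the filter only through its Ptf1a-/- libraries.

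How the libraries were scaled moved all arms together. The TMM factor of Ptf1a-/- replicate 2 was 0.829, against 1.06 to 1.07 for the other libraries, and the authors' CPM rest on a larger total, of which the listed counts leave out 17.05 and 16.3% in Ptf1a+/- and 22.7 and 27.9% in Ptf1a-/-. On the authors' CPM, miR-770-5p stood at 36.8 and 36.4 in Ptf1a+/- and at 42.1 and 27.8 in Ptf1a-/-, so that the genotypes overlapped and the log2 difference was -0.09 (log2 of CPM + 1). miR-493-5p stood at 22.3 and 20.8 against 68.7 and 42.0 on that scale, and miR-673-5p at 21.8 and 20.4 against 3.2 and 1.5. Over 13 other settings the log2 fold change of miR-673-5p ran from -3.25 to -2.58, that of miR-493-5p from 1.28 to 1.82 and that of miR-1247-3p from -1.51 to -1.04. It ran from 0.75 to 1.49 for miR-493-3p, from 0.45 to 0.84 for miR-337-5p and from 0.21 to 0.89 for miR-770-3p. On the authors' CPM miR-337-5p stood at 168.5 and 179 in Ptf1a+/- and at 283 and 200.2 in Ptf1a-/-. Of the 9 arms, miR-770-5p changed sign and the other 8 did not.

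**Figure D4:**
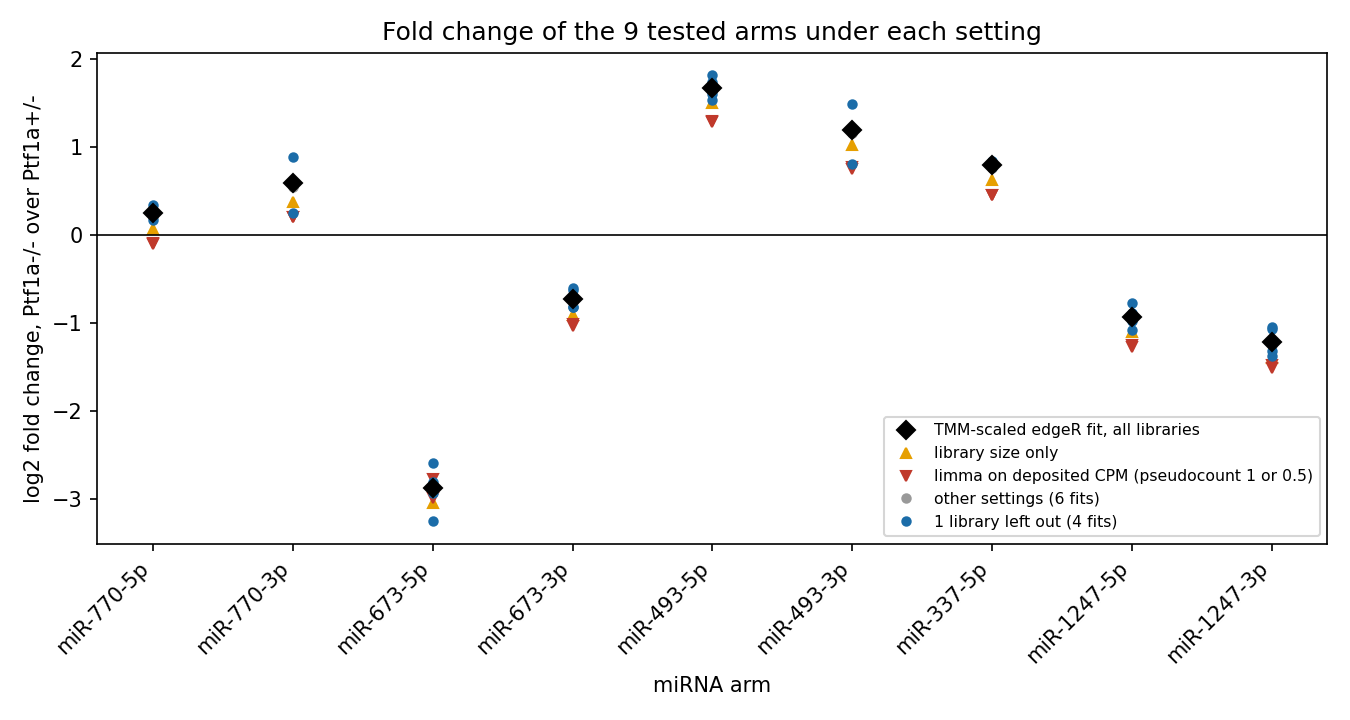
Log2 fold change of Ptf1a-/- over Ptf1a+/- for the 9 tested arms under each setting, with 1 point per fit. The arms of miR-673 and miR-1247 stay below 0 and those of miR-493 and miR-337 above it in all settings, while miR-770-5p drops to -0.09 on the deposited CPM.

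Listed counts summed to 3647145 to 4385834 per library, so 3 counts, the limit that a count of 0 allows, correspond to 0.684 to 0.823 CPM without TMM scaling. The Ptf1a+/- libraries were nearly alike (biological coefficient of variation 1.39%) and the Ptf1a-/- libraries were not (22.6%). Markers of retinal neurons and progenitors (miR-124-3p, miR-9-5p, miR-183-5p, miR-182-5p and miR-96-5p) summed to 340340.0 and 337100.0 CPM in Ptf1a+/- and to 363530.0 and 517960.0 CPM in Ptf1a-/-, replicate 2 standing apart, and none of the 5 was called. That sum was mostly miR-9-5p, miR-182-5p and miR-183-5p, with log2 fold changes of 0.38, 0.37 and 0.48. miR-124-3p (-0.15) and miR-96-5p (-0.34) went the other way. Of the markers of other cell types, 1 of 3 for pigment epithelium (miR-204-3p) and 1 of 3 measured for lens and surface epithelium (miR-200b-3p) were called lower, and none of those in the fit for blood (1), vessels and mural cells (3) and striated muscle (3) was called. miR-200b-3p stood at 6.46 and 6.595 CPM against 0.258 and 0.924 CPM, near the floor in Ptf1a-/- (log2 fold change -3.47 ± 0.49). In the same list miR-184-3p was at -0.44 and miR-203-3p went the other way (0.30). The summed level of the vessel and mural list was 593 and 614 CPM in Ptf1a+/- and 352 and 587 CPM in Ptf1a-/-. That of the muscle list was 48.6 and 51.3 against 65.1 and 70.2 CPM, that of the blood list 73.4 and 70.4 against 63.8 and 96.4, that of the lens list 305 and 292 against 227 and 301, and that of the pigment epithelium list 3690.0 and 3729 against 3204 and 3566. The vessel and mural sum was mostly miR-126a-3p (546 and 564 against 324 and 545 CPM). Within that list miR-143-3p stood at 33.8 and 34.3 against 13.2 and 20.6 CPM (log2 fold change -1.03 ± 0.25). miR-126a-5p went the other way, at 12.9 and 15.3 against 14.5 and 21.2 CPM (0.31 ± 0.28). The red cell marker miR-451a was at 0 to 0.308 CPM in every library. The part of these cell types in the levels of the 10 arms was not tested.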

How the data were processed

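Small RNA of 18 to 30 nt from retina was sequenced in 4 libraries, per the labels' protocols, with 2 gel size selections. The submitters' processing notes name bcl2fastq 2.20.0.422. Which aligner, counter and build were used is not given in these sources. The deposited raw table holds estimated counts per mature miRNA by the authors, rounded here before fitting. The deposited CPM are the authors' counts scaled to a total that exceeds the listed miRNAs. The deposited text table gives the most frequent sequence per miRNA, marked against miRBase22 per the file headers. Without molecular identifiers, reads cannot be counted as separate molecules. The intervals therefore cover the counting error of reads only and may be too narrow for molecules.

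The fit was edgeR 4.0.16 (R 4.3.3, glmQLFit, TMM, genotype as the only term) on 584 miRNAs, with Benjamini-Hochberg adjustment. The code was also run on simulated counts with the same spread in both genotypes. The real spreads were unequal (biological coefficient of variation 1.39% in Ptf1a+/- and 22.6% in Ptf1a-/-). That run therefore checks the code and not the calls made here. DESeq2 1.42.0, limma 3.58.1 on log2 of the deposited CPM plus 1 or 0.5, other scalings, other filters and left-out libraries were alternatives. The named miRNAs are the 10 arms, the nearest annotated precursors, the 3 closest patterns of miR-493-5p, miR-673-5p and miR-1247-3p, and miRNAs sharing a seed. The distances use log2 CPM with a prior count of 2. Domain miRNAs were placed by RefSeq symbol, and 4 by name alone. RNAfold 2.7.2 predicted structures. The members and lists were chosen with earlier results of these data known. Same-numbered libraries are paired by nothing in the labels.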

Additional observations from a re-analysis of the deposited data

How the results depend on the processing

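The calls over all 584 miRNAs depended on the settings, the 36 higher and 21 lower becoming 4 and 12 with library size as the only scaling, 1 and 27 with limma on the deposited CPM and 12 and 9 without the filter. The split moved from 63.2% higher to 25% with library size only and 3.57% on the deposited CPM, the median of all miRNAs shifting to -0.18 and -0.33. With the Ptf1a+/- libraries summed into 1, 0 were higher and 1 lower (edgeR), and none of the 9 arms was called. With the replicate number as a replicate block, 5 were higher and 7 lower, and 2 arms (miR-493-5p and miR-673-5p) were called; the deviations of same-numbered libraries had a correlation of 0.05 over the 584 miRNAs, and the labels do not pair them. Leaving out each library in turn gave 0 to 142 higher and 1 to 132 lower calls: without Ptf1a+/- replicate 1 there were 0 and 5, without Ptf1a+/- replicate 2 there were 0 and 1, without Ptf1a-/- replicate 1 there were 140.0 and 123, and without Ptf1a-/- replicate 2 there were 142 and 132. The lone library of a genotype is then assumed to vary like the other pair. The arms called in these fits numbered 1, 0, 8 and 9. Of the fold changes of the arms under alternatives, 79 kept their direction and side of the threshold, 29 kept only the direction with the call lost, 7 gained a call and 2 reversed. Those 2 were miR-770-5p on the deposited CPM, with -0.094 at a pseudocount of 1 and -0.096 at 0.5, where the median of all miRNAs was below 0 as well. Only the 5 arms called in the main fit had a call to lose, so all 29 losses fall on them. The 79 include fits of the 4 arms not called, which kept their side by staying uncalled. Of the arms, 1 was called with library size only, 2 with limma on the deposited CPM and 3 without the filter. The cause of the lost and gained calls was not tested. Depth limits miR-337-3p, and miR-673-5p in Ptf1a-/-.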
